A study of Arabidopsis thaliana with 36 samples.

Results

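At the top of Arabidopsis chromosome 4, near FRI, 163 probe sets of the ATH1 array were compared between 3 lines. Members were chosen by their number, from 255450 to 255700, and by a mean signal of at least 25 over the 36 arrays, which took 163 of the 251 probe sets in that number range and of 22810 on the array. Of these members, 85 were matched to 1 gene, 3 to several genes and 75 to none. All 85 single genes had loci beginning with AT4G0, so the label holds for every member that could be checked, and the place of the others was not checked. The 85 probe sets stood for 81 loci, spread over 380 successive genes from the 70th to the 449th of 5841 genes in the order of chromosome 4. The FRI locus, AT4G00650, is the 96th and was not among the named members. Probe set numbers ran against gene order, with a Spearman correlation of -0.961 across the 85 probe sets, given as a description of the array's numbering.

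All plants were Arabidopsis thaliana grown in soil at 23C, and the sample was the apical region at 10 to 18 leaves. The line named FRI carried, in Col with a functional FLC, the FRI allele from the Sf-2 accession. FRI flc-3 carried the same Sf-2 allele together with flc-3, a fast neutron mutant allele of FLC, and flc-3 carried the mutant FLC in Col-0 without the Sf-2 allele. Each line was sampled after short days and then 0, 3, 5 or 7 long days, with 3 arrays per line and day and 12 arrays per line. The labels call the stage vegetative for all FRI arrays, for day 0 of the other lines and for replicates 2 and 3 of flc-3 at day 7, and transition for the rest. They do not say how much Sf-2 sequence around the allele the lines hold, nor whether replicates were separate pools of plants, so p-values measure only the spread between these samples.

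FRI encodes a scaffold protein that, with partner proteins, activates transcription of FLC. FLC is a MADS-box repressor of flowering that keeps the shoot apex vegetative until prolonged cold silences it. Col carries a FRI allele that does not work, so the Sf-2 allele restores high FLC expression and late flowering in this background. An allele moved between accessions by crossing can bring neighbouring chromosome along. The FRI allele and any Sf-2 sequence linked to it cannot be told apart in these lines. The array's probes were designed on the Col sequence, so a different amount of RNA and a different match between probe and RNA cannot be told apart from a signal either. In a dissected region, fewer cells of a type and less RNA per cell cannot be told apart.

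The 2%-trimmed mean signal was between 100.007 and 100.009 on the 36 arrays, and arrays of 1 group correlated at 0.979 or more. That lowest value was of a pair of arrays that included replicate 3 of FRI flc-3 at day 0. Of the markers listed for the shoot apex, 2 of 15 were tested. LAS, which acts in axillary meristems, had a mean signal of 31.6 for FRI, 29.5 for FRI flc-3 and 32.9 for flc-3. UFO, a floral meristem gene, had 2.26, 8.38 and 10.8, with 25.6 on its highest array. Of the 7 green leaf markers listed, 3 were tested, RCA, PRK and LHCB4.1, with signals between 331 and 2645 on single arrays. Of the 5 root markers 2 were named on the array and neither passed the filter, and none of the 8 flower markers was named.

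Setting FRI flc-3 against flc-3 asks what goes with the Sf-2 allele where FLC is mutant. Members were more often lower than higher with the allele. A member was called at an adjusted p under 0.05 in a limma fit to all 14912 probe sets that passed a filter on dim signals, and all 163 members passed it. As means over the 4 days, 48 of 163 members (29.4%) were called against a background of 4.24% of all probe sets tested. Lower in FRI flc-3 were 33 members, against a background of 2.29%, and higher were 15, against 1.94%. Outside the number range, 549 of 13178 tested probe sets with a mean of at least 25 were called (4.17%). The range had been proposed with such results in view, so these shares describe it and are not an independent test. The SD of the log2 difference was 0.26 over the members and 0.13 over all tested, and the medians were -0.03 and -0.0018. Of the members without a single gene name, 25 of 78 were called, and of those with one, 23 of 85.

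**Figure D1:**
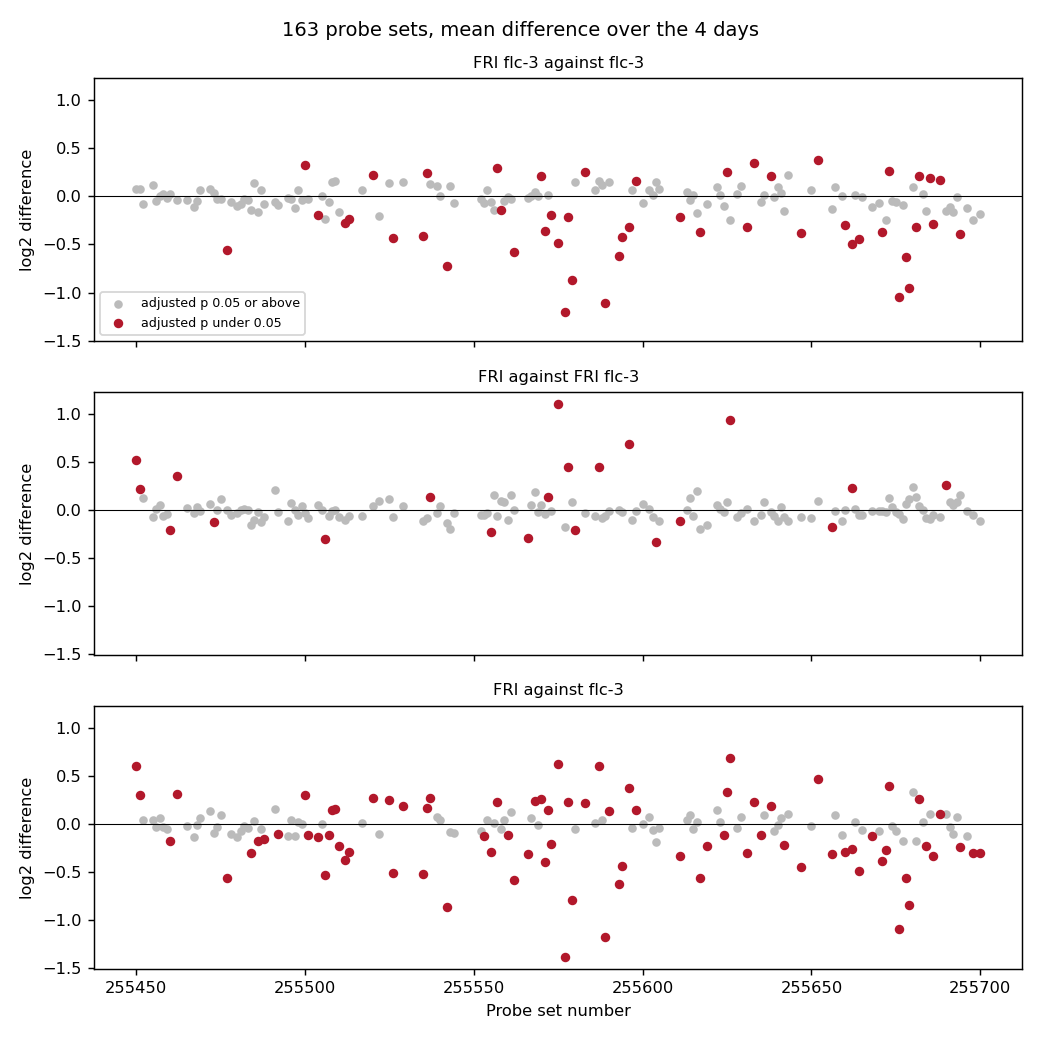
The log2 difference of each of the 163 members (vertical axes) is plotted against probe set number (horizontal axis) for the 3 pairs of lines, as a mean over the 4 days with 12 arrays against 12; red points have an adjusted p under 0.05. In FRI flc-3 against flc-3, 33 red points lie below 0 and 15 above it, while FRI against FRI flc-3 has 21 red points in all.

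The called members with the largest differences were all lower with the Sf-2 allele. AT4G01410, which encodes a protein of the late embryogenesis abundant hydroxyproline-rich glycoprotein family, had signals from 25.7 to 87.2 (median 52.3) on the 12 flc-3 arrays. It had 11.0 to 43.6 (median 23.1) for FRI flc-3 and 11.9 to 34.8 (median 21.6) for FRI. The range of flc-3 overlapped both others, and the log2 difference of FRI flc-3 from flc-3 was -1.21 ± 0.15 (SE, 12 against 12 arrays, adjusted p = 8.9e-07). FRI and FRI flc-3 differed by -0.17, with 95% limits of -0.48 and 0.13.

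The probe set 255589_s_at, matched to several genes and so given by number, had 79.2 to 102 (median 90.1) for flc-3. In FRI flc-3 it had 35.1 to 52.6 (median 40.8) and in FRI 32.0 to 57.5 (median 38.1). Every flc-3 array was above every array of both other lines. The log2 difference of FRI flc-3 from flc-3 was -1.11 ± 0.073 (adjusted p = 3.2e-13), and FRI differed from FRI flc-3 by -0.06, with 95% limits of -0.21 and 0.09.

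The unnamed 255676_at had 118 to 240 (median 176) for flc-3, 60.6 to 110 (median 82.1) for FRI flc-3 and 55.5 to 90.1 (median 83.5) for FRI. Its lowest flc-3 array was again above the highest of the other 24. The difference of FRI flc-3 from flc-3 was -1.05 ± 0.054 on the log2 scale (adjusted p = 4.9e-16). Its signal was not level over the days: in flc-3 the group mean was 120 ± 2.80 (SD, n = 3) at day 0 and 234 ± 10.1 at day 7, and in FRI flc-3 62.9 ± 3.73 and 95.7 ± 14.7.

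AT4G00520, an acyl-CoA thioesterase family gene, was measured by 2 probe sets. With 255679_at it had 51.2 to 70.3 (median 59.3) for flc-3, 23.6 to 38.5 (median 31.5) for FRI flc-3 and 25.6 to 44.5 (median 32.3) for FRI, with no overlap of flc-3 and the others. With 255678_at it had 38.8 to 60.3 (median 53.3), 20.9 to 46.2 (median 32.5) and 21.9 to 44.7 (median 34.5), and the ranges overlapped. Both were lower in FRI flc-3 than in the flc-3 line, by log2 differences of -0.95 ± 0.072 (adjusted p = 1.9e-11) and -0.63 ± 0.0997 (adjusted p = 5.9e-05). The other 3 genes with 2 member probe sets, SETH5, AT4G01290 and AT4G02480, were called by neither, with differences between -0.17 and 0.10.

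AT4G01460, a basic helix-loop-helix transcription factor gene, had 37.5 to 56.7 (median 41.4) for flc-3, 16.3 to 30.3 (median 23.1) for FRI flc-3 and 19.8 to 29.6 (median 23.8) for FRI. AT4G01860, a WD-40 repeat protein gene, had 67.2 to 85.9 (median 75.2), 32.9 to 56.9 (median 47.0) and 34.1 to 49.04 (median 42.3). For both genes all flc-3 arrays lay above all others, and FRI flc-3 was lower than flc-3 by -0.87 ± 0.074 and -0.73 ± 0.072 (adjusted p = 2.9e-10 and 8.6e-09).

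AT4G01650, of the polyketide cyclase and lipid transport superfamily, had 25.7 to 47.1 (median 34.0) for flc-3, 16.8 to 29.5 (median 22.2) for FRI flc-3 and 15.4 to 26.3 (median 23.2) for FRI. The lowest flc-3 array reached into the range of the other lines, and the difference was -0.62 ± 0.075 (adjusted p = 5.9e-07). AT4G01410, AT4G01460 and AT4G01650 had mean signals of 20.8 to 24.6 in both lines with the allele, near the arrays' 40th percentiles of 19.8 to 24.8. They met the mean of 25 only through flc-3, where they were high, and are counted among the 33 members called lower. At a log offset of 16 in place of 1.62 their differences were smaller, at -0.85, -0.60 and -0.41, and stayed called.

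**Figure D2:**
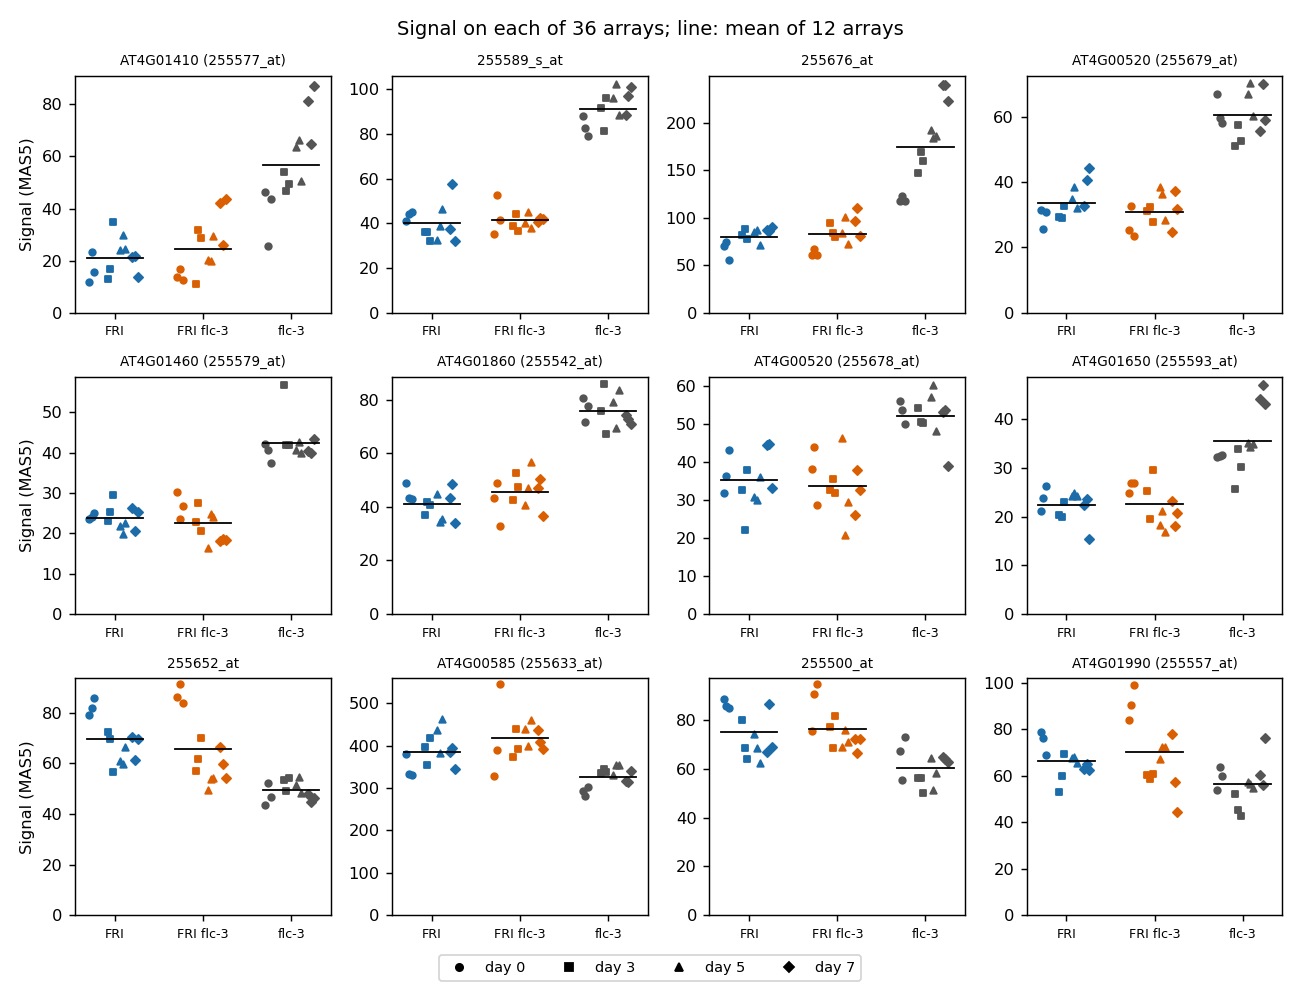
Signal (vertical axes, linear MAS5 units) on each of the 36 arrays is plotted by line (horizontal axes) for the 8 called members with the largest lower difference and the 4 with the largest higher difference in FRI flc-3 against flc-3; black lines are means of 12 arrays and symbols mark the day. For 255589_s_at, 255676_at, 255679_at, AT4G01460 and AT4G01860 every flc-3 point lies above every point of the other lines.

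Further called members lower in FRI flc-3 had differences from -0.58 to -0.44 among those named. The unnamed 255562_at stood at -0.58 ± 0.054, and its 12 arrays of FRI flc-3, at 66.6 to 89.3, did not overlap the 12 of flc-3, at 101 to 137. AT4G02370 stood at -0.56 ± 0.078, 255662_at at -0.49 ± 0.075, TRM15, a member of the TON1 recruiting motif family, at -0.44 ± 0.10 and SEC15B, an exocyst subunit gene, at -0.44 ± 0.046. The adjusted p of these 5 ran from 2.2e-09 to 0.0076. For 255575_at the difference was -0.48 ± 0.14 with an adjusted p of 0.041, which was 0.095 in a fit without the third line. The call was also lost in 16 leave-one-out fits, up to 0.090, and at an offset of 16 the difference was -0.25. FRI had a mean signal of 57.6 for 255575_at against 35.3 for FRI flc-3 and 43.7 for flc-3, so this probe set did not separate the lines by the Sf-2 allele.

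Members higher with the allele differed by less. The unnamed 255652_at had 49.5 to 91.3 (median 60.7) for FRI flc-3, 56.5 to 85.8 (median 69.8) for FRI and 43.7 to 54.5 (median 48.6) for flc-3, a difference of FRI flc-3 from flc-3 of 0.37 ± 0.0498 (adjusted p = 3.7e-06). AT4G00585 had 329 to 546 (median 404) for FRI flc-3, 331 to 463 (median 383) for FRI and 282 to 355 (median 333) for flc-3. Its ranges overlapped and its difference was 0.35 ± 0.053 (adjusted p = 2.7e-05).

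The unnamed 255500_at had 66.3 to 94.8 (median 73.8) for FRI flc-3, 62.2 to 88.7 (median 71.4) for FRI and 50.1 to 73.0 (median 60.4) for flc-3. AT4G01990, which encodes a pentatricopeptide repeat protein, had 44.4 to 99.2 (median 69.9), 53.0 to 78.9 (median 66.8) and 42.7 to 76.5 (median 56.2). Lines overlapped for both, and FRI flc-3 differed from flc-3 by 0.33 ± 0.055 and 0.29 ± 0.064 (adjusted p = 0.00013 and 0.0046). The other 10 named members higher in FRI flc-3 had differences from 0.17 to 0.26. Among them were ARV2, a homologue of yeast ARV1, which acts in sterol transport, at 0.25 ± 0.053, AT4G01575, a Kazal-type protease inhibitor gene, at 0.25 ± 0.051, AT4G02230, a ribosomal protein L19e gene, at 0.22 ± 0.033 and AT4G00560 at 0.21 ± 0.054. The unnamed ones were 255673_at and 255625_at at 0.26 and 0.25, 255638_at and 255570_at both at 0.21, 255685_s_at at 0.20 and 255688_at at 0.17. The call of 255625_at (adjusted p = 0.040) was lost in a fit without the third line, where its adjusted p was 0.066. It was also lost in 14 leave-one-out fits, up to 0.081. The call of 255673_at (adjusted p = 0.025) was lost without replicate 1 at day 0 or replicate 2 at day 5 of FRI flc-3, or replicate 1 of flc-3 at day 7, up to 0.060.

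Arrays that do not overlap at all between lines were rare on the array and frequent among these members. All 12 FRI flc-3 arrays lay on the same side of all 12 flc-3 arrays for 10 of 14912 probe sets tested (0.0671%). Of the 10, 7 were members (4.29% of 163), all lower in FRI flc-3. The 7 were 255542_at (AT4G01860), 255562_at, 255579_at (AT4G01460), 255589_s_at, 255660_at (AT4G00755), 255676_at and 255679_at (AT4G00520). With both lines that carry the allele pooled, 24 arrays against 12, there were 5 such probe sets among all tested (0.0335%). The 5 were members (3.07% of 163) and lower with the allele. FRI and flc-3 did not overlap for 18 probe sets tested (0.121%), of which 7 were members (4.29% of 163), 6 lower and 1 higher in FRI. FRI and FRI flc-3 did not overlap for 22 probe sets (0.148%), and 0 of them were members. With 163 members, 0 cannot be set apart from a share of 0.148%. These comparisons share arrays. AT4G01460 was counted in each comparison against flc-3, and it met the limit on mean signal only through its high flc-3 arrays. The number range had been proposed with such results in view, so the shares of members describe it and are not an independent test.

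Called members were not spread evenly along the numbering. From 255450 to 255499, the numbers that lie farthest from the chromosome end, 1 of 36 members (2.78%) was called in FRI flc-3 against flc-3. From 255500 to 255549 it was 9 of 25 (36.0%), from 255550 to 255599 16 of 35 (45.7%), from 255600 to 255649 7 of 30 (23.3%) and from 255650 to 255699 15 of 36 (41.7%). Among 40 other bins of 50 numbers, 20 on either side, the share ran from 0% to 17.1%. The bin next below, 255400 to 255449, had 0 of 30, and 15 of its 15 named probe sets also had loci from AT4G00 to AT4G03. The bin next above, 255700 to 255749, had 6 of 35 (17.1%), and of its 18 named probe sets only 5 had such loci, 3 of them called.

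Placed by gene order, called named members ran from AT4G00440 (TRM15), 24 genes before the FRI locus, to AT4G02370, 258 genes after it. In that stretch 23 of 62 named members were called, and at most 5 neighbours in a row. Beyond AT4G02370 none of 22 named members was called, with the largest absolute log2 difference at 0.15 and the smallest adjusted p at 0.13. The end of the stretch was set by the last call, so the 0 beyond it is a description. Fewer than 50 genes from the FRI locus 6 of 17 named members were called, from 50 to under 150 genes away 7 of 22, from 150 to under 250 genes 8 of 21, and at 250 genes or more 2 of 25.

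**Figure D3:**
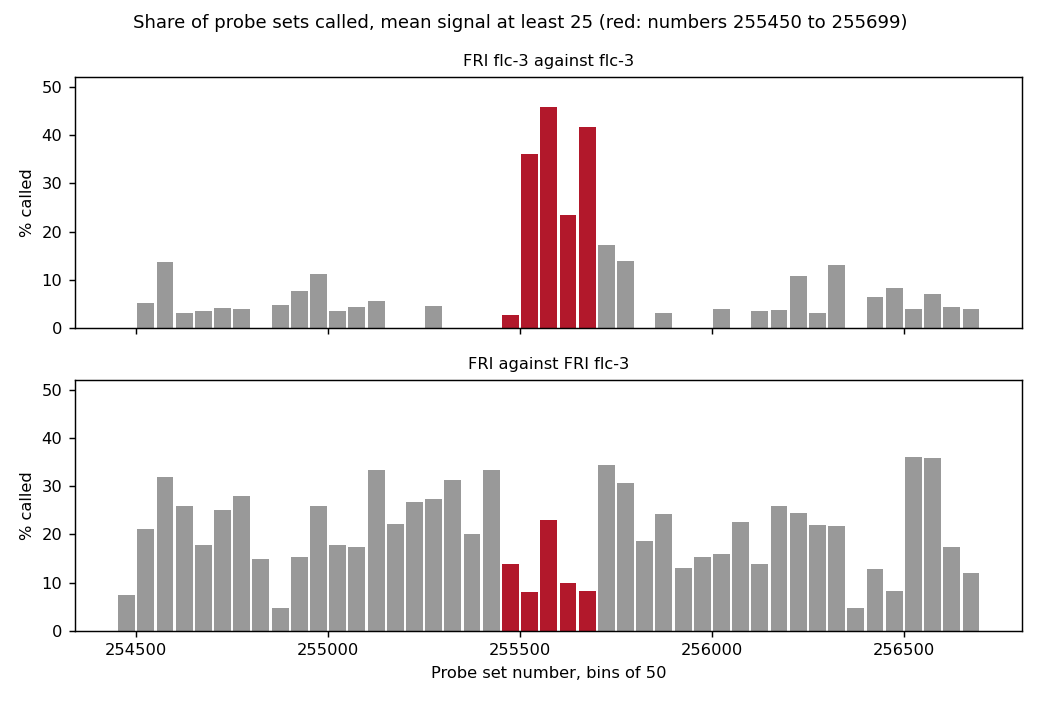
The percentage of probe sets called (vertical axes) is plotted in bins of 50 probe set numbers (horizontal axis), over probe sets with a mean signal of at least 25, for FRI flc-3 against flc-3 and for FRI against FRI flc-3. In the upper panel 4 of the 5 red bins lie between 23.3% and 45.7%, above the 17.1% of the highest grey bin, and in the lower panel the red bins lie between 8.00% and 22.9% within the grey range.

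The difference of FRI flc-3 from flc-3 was mostly of 1 direction over the days. Of the 48 called members, 44 (91.7%) had the same sign on all 4 days, against 386 of 632 (61.1%) among all called probe sets. Both sets were called on the mean over these same days and were not matched for size of difference, so these shares are a description. Taken day by day, 3 arrays against 3, 19 members (11.7%) were called at day 0 against a background of 1.9%. There were 10 (6.1%) at day 3 against 0.53%, 22 (13.5%) at day 5 against 4.64% and 25 (15.3%) at day 7 against 3.9%. Lower in FRI flc-3 were 13, 9, 16 and 19 of them, and shares by direction were not counted over all probe sets by day. The median log2 difference on these days was -0.028, -0.028, -0.048 and -0.077 over the members. Over all tested it was 0.0010, 0.0066, -0.0053 and -0.0179. AT4G01410 kept a log2 difference of -1.29, -1.14, -1.34 and -1.06 at days 0, 3, 5 and 7, and 255589_s_at one of -0.95, -1.14, -1.19 and -1.17.

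The counts by day moved with the arrays in the fit. Fitted to the 6 arrays compared, they were 7 at day 0, 6 at day 3 and 14 at day 7. Shares over all probe sets are not given for these refits or those below, so a loss particular to the members cannot be read. For the mean over the days, calls over all probe sets went from 632 to 530 when only the compared arrays were fitted. Day 0 had 12 calls without replicate 2 or 3 of FRI flc-3 and 11 without replicate 3 of flc-3. Day 3 had 6 without replicate 1 of FRI flc-3 or replicate 2 of flc-3. Day 5 had 14 without replicate 2 of FRI flc-3 or replicate 1 of flc-3, and 13 without replicate 2 of flc-3. Day 7 had 14 without replicate 3 of either line. With a common 75th percentile on every array the split at day 5 was 10 higher and 14 lower, in place of 6 and 16. The mean over the days had 50 calls without replicate 3 of FRI flc-3 at day 0, an array of the pair with the lowest correlation.

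**Figure D4:**
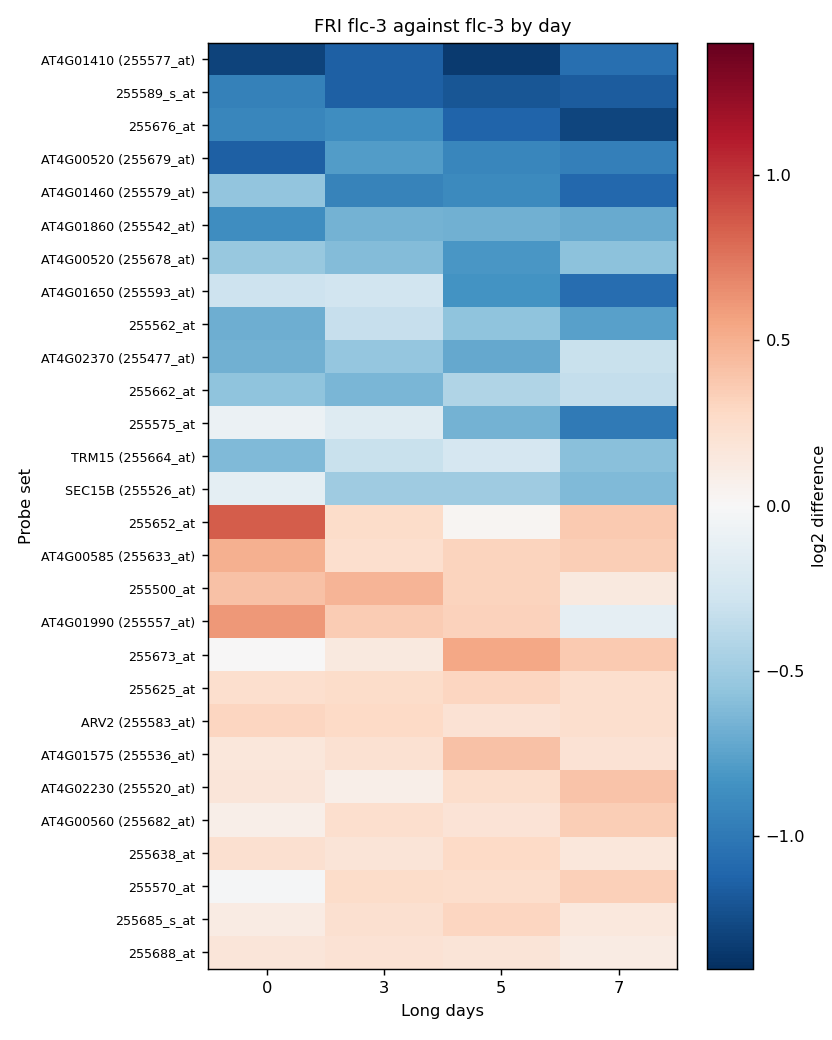
The log2 difference of FRI flc-3 from flc-3 (colour scale) is shown for the 28 named members (rows) after 0, 3, 5 and 7 long days (columns), each with 3 arrays against 3. AT4G01410 is blue on all days at -1.29 to -1.06, while 255575_at goes from -0.08 at day 0 to -0.99 at day 7 and 255652_at is 0.85 at day 0 and 0.03 at day 5.

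A change of this difference with the day was called for 7 of 163 members (4.29%) by an F-test with 3 degrees of freedom. The background was 5.53% of probe sets tested. The count of members was 4 without replicate 1 of FRI flc-3 at day 5 or without replicate 3 of flc-3 at day 5. For 255652_at (adjusted p = 0.0018) FRI flc-3 fell from 87.2 ± 3.76 (SD, n = 3) at day 0 to 52.5 ± 2.56 at day 5, while flc-3 had 47.6 ± 4.33 and 51.4 ± 3.19. For AT4G01650 (adjusted p = 0.025) flc-3 had 32.4 ± 0.266 at day 0 and 44.7 ± 2.08 at day 7, and FRI flc-3 had 26.2 ± 1.22 and 20.7 ± 2.50. The gap thus widened in signal from day 0 to day 7, and that call was lost under quantile normalization (adjusted p = 0.052) and without replicate 2 at day 7 of either line (up to 0.056).

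Setting FRI against FRI flc-3 asks what a functional FLC changes where both lines hold the Sf-2 allele. Here 21 of 163 members (12.9%) were called, against a background of 21.2% of probe sets tested. In FRI 12 were higher, against a background of 11.1%, and 9 were lower, against 10.1%. The absolute log2 difference had a median of 0.064 over the members and 0.075 over all tested. Among the leaf markers, PRK and LHCB4.1 were higher in FRI by 0.12 and 0.14 and RCA stood at 0.06. Of the apex markers, LAS stood at 0.08 (adjusted p = 0.56), and UFO had 1.05 to 4.57 on the FRI arrays, all under the 40th percentile, against 1.80 to 20.3 for FRI flc-3. The part of these markers in the members' differences was not tested.

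The members with the largest difference were higher in FRI. The unnamed 255575_at stood at 1.104 ± 0.14 (SE, adjusted p = 1.2e-07), AT4G00780, a TRAF-like family gene, at 0.94 ± 0.098 (adjusted p = 2.1e-09) and WRKY47, a WRKY transcription factor gene, at 0.69 ± 0.074 (adjusted p = 4.4e-09). AT4G02850, of the phenazine biosynthesis-like family, stood at 0.53 ± 0.028 (adjusted p = 7.7e-17). The unnamed 255578_at and 255587_at followed at 0.45 each, AT4G02940 (ALKBH10B), an RNA demethylase gene, at 0.36 ± 0.065 and 255690_at at 0.26. Lower in FRI were TBL26, of the trichome birefringence-like family, at -0.33 ± 0.089, 255506_at and 255566_s_at both at -0.29, AT4G01810, a Sec23/Sec24 transport family gene, at -0.23 ± 0.051, AT4G02800 and 255580_at both at -0.20, the jumonji-domain gene AT4G00990 at -0.17 and the p23 co-chaperone gene AT4G02450 at -0.12. AT4G00990 had an adjusted p of 0.034 and lost its call in a fit without the third line, at 0.056, and in 9 leave-one-out fits, up to 0.083. AT4G02450 (adjusted p = 0.021) lost its call without replicate 3 of FRI at day 0 or replicate 2 at day 5, up to 0.053. At an offset of 16, 255575_at stood at 0.66 and TBL26 at -0.22, both called.

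For some of these members the difference depended on the day. A change of the difference between FRI and FRI flc-3 with the day was called for 13 of 163 members (7.98%). That share was below the background of 13.3%. For 255575_at (adjusted p = 5.6e-06) FRI had 58.9 ± 2.44 (SD, n = 3) at day 0 and 39.96 ± 6.11 at day 7, while FRI flc-3 had 54.5 ± 7.65 and 4.95 ± 3.69. The flc-3 line, the other mutant of FLC, had 57.6 ± 6.74 and 10.2 ± 3.87. WRKY47 (adjusted p = 2.3e-06) had 50.7 ± 3.60 and 42.4 ± 6.73 for FRI, 47.5 ± 7.10 and 13.2 ± 3.22 for FRI flc-3, and 56.5 ± 6.63 and 16.5 ± 0.942 for flc-3.

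AT4G00780 (adjusted p = 2.4e-05) had 127 ± 19.1 at day 0 and 38.1 ± 9.54 at day 7 in FRI, and 78.7 ± 22.9 and 7.92 ± 2.34 in FRI flc-3. AT4G02850 (adjusted p = 3.5e-08) had 377 ± 6.94 and 312 ± 15.1 in FRI, and 343 ± 20.0 and 170 ± 5.96 in FRI flc-3. GH9B13, a gene of the glycosyl hydrolase family of endoglucanases, went the other way (adjusted p = 2.7e-06), with 750 ± 44.1 and 601 ± 18.2 in FRI and 573 ± 61.6 and 793 ± 58.3 in FRI flc-3.

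**Figure D5:**
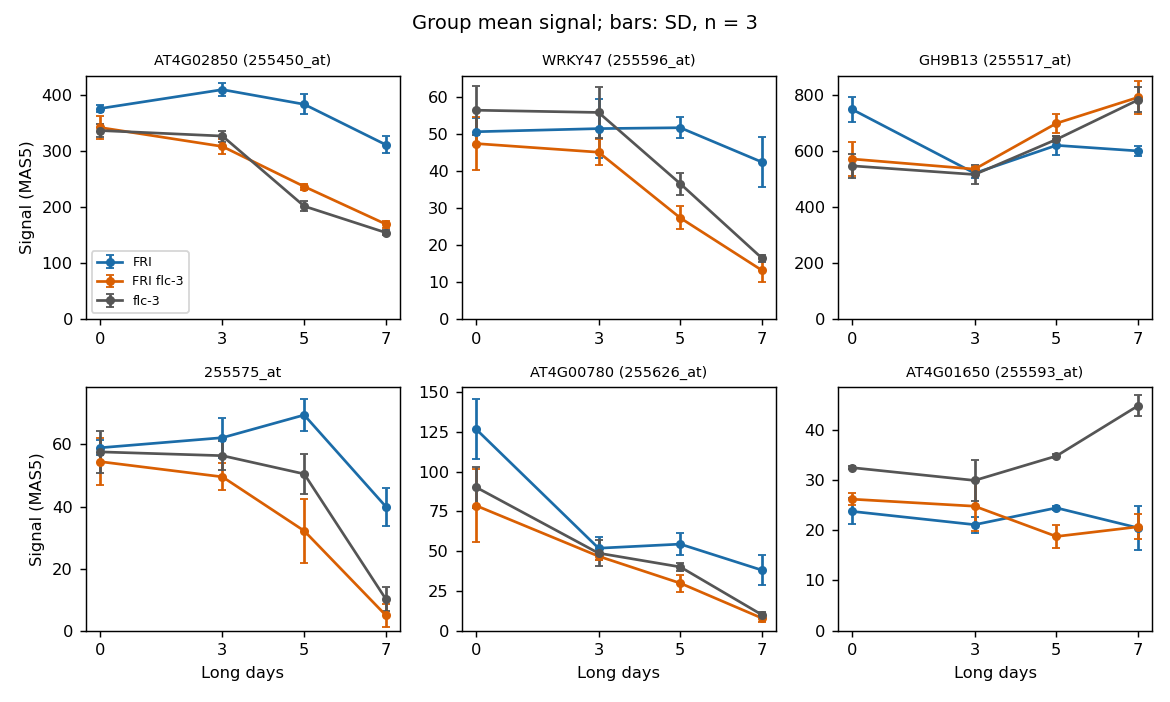
Group mean signal (vertical axes, linear MAS5 units) is plotted against long days (horizontal axes) for the 3 lines, with bars of 1 SD over 3 arrays. For AT4G02850, WRKY47, 255575_at and AT4G00780 the day 7 means of FRI flc-3 and flc-3 lie below that of FRI, and for AT4G01650 flc-3 is above both other lines on all 4 days, at 44.7 on day 7.

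FRI and flc-3 differ in both the Sf-2 allele and FLC, and the comparison shares its arrays with the other 2. Called were 81 of 163 members (49.7%), against a background of 26.8%, 30 higher in FRI against 13.3% and 51 lower against 13.5%. The largest differences with FRI lower were AT4G01410 at -1.38 ± 0.15, 255589_s_at at -1.17, 255676_at at -1.09, AT4G01860 at -0.86, 255679_at (AT4G00520) at -0.84 and AT4G01460 at -0.79. Those with FRI higher were AT4G00780 at 0.69 ± 0.098, 255575_at at 0.62, 255587_at at 0.61, AT4G02850 at 0.60, 255652_at at 0.47 and 255673_at at 0.40. At an offset of 16 the value of 255575_at was 0.40. The adjusted p of these 12 ran from 2.7e-18 to 0.00086. The signals put AT4G01410, AT4G01860, AT4G01460, AT4G00520, 255676_at and 255589_s_at in 1 order, with flc-3 above the other lines and no call between FRI and FRI flc-3. AT4G02850 had 371 for FRI, 265 for FRI flc-3 and 255 for flc-3, so its high line was FRI alone.

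The share of members called over the long days was close to that of all probe sets tested. Between day 0 and day 7, 44 members were called for FRI (27.0%, against a background of 26%), 68 for FRI flc-3 (41.7%, against 41%) and 79 for flc-3 (48.5%, against 46.2%). AT4G00780 fell in all lines, with log2 changes of -1.71 ± 0.20 for FRI, -3.06 ± 0.20 for FRI flc-3 and -2.99 ± 0.20 for flc-3. The unnamed 255575_at fell in FRI flc-3 and flc-3 by -3.29 and -2.38, WRKY47 by -1.74 and -1.68, and AT4G02850 by -1.01 and -1.12. In FRI, 255575_at and WRKY47 had -0.55 and -0.26 and were not called, and AT4G02850 fell by -0.27. The unnamed 255691_at fell by -0.74, -0.52 and -0.73 with FRI, FRI flc-3 and flc-3, 255690_at by -0.52, -0.97 and -1.29, and AT4G01270, a RING finger gene, by -0.52, -0.50 and -0.27. At an offset of 16 the changes in FRI flc-3 were -1.76 for 255575_at, -1.12 for WRKY47 and -1.96 for AT4G00780, and that of 255575_at in flc-3 was -1.50, all called.

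Of the risers, the unnamed 255506_at rose by 0.70, 1.17 and 1.05 with FRI, FRI flc-3 and flc-3. In the same order of lines, 255671_at rose by 0.80, 0.66 and 0.52, AT4G01870, a TolB-related protein gene, by 0.63, 0.65 and 0.70, and 255566_s_at by 0.49, 1.07 and 1.14. The unnamed 255491_at rose in FRI by 1.11 (0.72 with an offset of 16) and had -0.23 and 0.24, not called, in FRI flc-3 and flc-3. Of the next 4, none was called in FRI, where their values ran from 0.10 to 0.25. AT4G01410 rose by 1.25 ± 0.30 in FRI flc-3 (0.79 with an offset of 16) and 1.01 ± 0.30 in flc-3. GT72B1 (UGT72B1), a glucosyltransferase of phenolics, rose there by 1.01 and 0.77, 255619_s_at by 0.83 and 1.15, and the leucine-rich repeat gene AT4G03010 by 0.58 and 1.101. Whether these changes differed between FRI and FRI flc-3 is tested only by the change with the day above. Between FRI and flc-3 it was not tested.

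By function, few listed genes of the region could be tested. Of 21 transcription and chromatin regulators listed 7 were tested and 4 were members. In FRI flc-3 against flc-3, 3 of the 7 were lower and 1 higher, beside 2.29% lower and 1.94% higher over all probe sets tested, and the median was -0.13 against -0.0018. The list was drawn from the same region, where 20.2% of the 163 members were lower and 9.20% higher. With 7 genes, no trait of the regulators can be read from these counts. AT4G01460 and WRKY47 were lower, at -0.87 and -0.31 (adjusted p = 0.0091), and ATMYC1, a trichome regulator, and WRKY22, of immune signalling, stood at -0.06 and 0.05. WRKY47 had a mean of 49.1 for FRI, 33.3 for FRI flc-3 and 41.3 for flc-3, so it did not separate the lines by the Sf-2 allele. The other 3 were not members: YAB3, a leaf polarity gene, at 0.11, LD, which acts in the autonomous flowering pathway, at -0.13 (adjusted p = 0.20), and AT4G00870. The last was among the 3 called lower, but its mean signals of 0.537 for FRI and 6.46 for FRI flc-3 were under the 40th percentile, and its 12 flc-3 arrays ran from 0.444 to 74.4, so no size is given.

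All 6 tested members of the translation list were among the 163. AT4G02230 was higher and AT4G01790, of the ribosomal protein L7Ae family, lower at -0.41 ± 0.072, and the list's median was 0.06. Beside these calls, 1.94% of all probe sets tested were higher and 2.29% lower, and 9.20% and 20.2% of the 163 members. The acidic ribosomal protein gene AT4G00810 stood at 0.10 and the mitochondrial elongation factor gene AT4G02930 at 0.11. AT4G02480, entered in this list, encodes an AAA-type ATPase and stood at -0.03. Of 12 protein kinases 3 were tested, and AT4G01330 was lower at -0.37 ± 0.075 (adjusted p = 0.0020), while AT4G02010 and AT4G02630 stood at -0.05 and -0.08. The shares given for the translation list apply to the kinases as well.

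Of 18 metabolic enzymes 6 were tested, with 1 higher and 1 lower and a median of 0.08. Beside them stand the same 1.94% and 2.29% of all probe sets, and 9.20% and 20.2% of the members. AT4G00520 was the lower one, the chitinase family gene AT4G01700, not a member, was called higher with dim means of 20.1 for FRI flc-3 and 11.2 for flc-3, and AT4G02120, a CTP synthase gene, stood at 0.15. Of 13 genes of the FRI complex and the FLC clade, AT2G30120 alone was named and tested, with a signal of 21.2 for FRI, 20.6 for FRI flc-3 and 23.5 for flc-3 and no call.

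Just inside the mean of 25 were TBL26 at 25.3 and WRKY22 at 25.4, and just outside AT4G02900 at 23.8 and 255549_at at 23.5. The first number taken was AT4G02850 with a mean of 297, the last 255700_at with 48.7, and just outside lay AT4G02820 with 82.2 and 255702_at with 38.6. Of the probe sets in the number range with a mean under 25, 21 passed the filter on dim signals and 67 did not.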

How the data were processed

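The authors deposited 1 linear signal intensity for each probe set, computed by MAS5 as named in the submitters' processing notes. Its version and scaling target are not given in the sources used here. The arrays' medians ran from 40.6 to 43.3, and their number limits the precision. Signals were used without further scaling as log2(signal + 1.62), the offset being the 10th percentile of all values. Without the 64 controls, probe sets above the 40th percentile of an array on 3 or more arrays were kept for testing, 14912 in all. A limma 3.58.1 fit in R 4.3.3 used 1 mean per group (12 groups, leaving 24 degrees of freedom) and moderated variances by eBayes with a trend on intensity. Tests were two-sided, with Benjamini-Hochberg adjustment over all 14912. The procedure was tested on simulated data. Log2 differences are on the log2(signal + offset) scale, which understates those of dim probe sets.

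Probe sets were named from GEO's platform annotation, which lists 14016 of them, matched to RefSeq (TAIR10.1), used for names and gene order only. Members, lists and tests were chosen with earlier results of these data known. Named members were, by rule, the called ones of largest difference: up to 14 in each direction for FRI flc-3 against flc-3, 8 for FRI against FRI flc-3, 6 for FRI against flc-3 and 4 for each day 7 response. The rule added 5 of smallest adjusted p for each change with day and up to 4 tested members of each list. AT4G00755, whose arrays did not overlap between lines, was named after its values were seen. Replicate numbers did not pair the arrays in general: deviations of same-numbered arrays correlated at a mean of 0.0023 over 198 pairs. The highest single pair had 0.363, against 0.148 among pairs of other numbers. Alternatives were other offsets, normalizations and filters, a replicate block, no trend, fewer arrays in the fit, and leaving out each array.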

Additional observations from a re-analysis of the deposited data

Results flagged for a closer look

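The difference between 2 lines changed with the day for the following members by an F-test across all probe sets. Each value is the log2 difference at day 7 minus that at day 0. For FRI flc-3 against flc-3 it was -0.49 for 255652_at, 0.24 for AT4G01310, a plastid ribosomal protein L5 gene, -0.37 for AT4G02800, 0.17 for AT4G01897 and -0.77 for AT4G01650, with adjusted p from 0.0018 to 0.025. AT4G02800 had 161 ± 15.5 (SD, n = 3) at day 0 and 296 ± 15.8 at day 5 in flc-3, against 209.2 ± 0.811 and 231 ± 14.2 in FRI flc-3. AT4G01310 had 997 ± 19.4 in flc-3 and 879 ± 7.45 in FRI flc-3 at day 0, and 683 ± 30.3 and 712 ± 22.2 at day 7. AT4G01897 had 82.4 ± 7.99 for FRI flc-3 and 68.5 ± 6.24 for flc-3 at day 0. FRI flc-3 was the lower line at day 5, with 71.9 ± 5.26 against 88.7 ± 9.35. At day 7 AT4G01897 had 111 ± 11.2 for FRI flc-3 and 81.8 ± 9.95 for flc-3. The call of AT4G02800 was lost without replicate 1 of FRI flc-3 or replicate 2 of flc-3 at day 5 (adjusted p up to 0.057), that of AT4G01897 without replicate 3 of flc-3 at day 5 (0.051) and that of AT4G01310 in a fit without the FRI line (0.055).

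For FRI against FRI flc-3 the change was 0.73 for AT4G02850, 1.49 for WRKY47, -0.79 for GH9B13, 2.74 for 255575_at and 1.35 for AT4G00780, with adjusted p from 3.5e-08 to 2.4e-05. At an offset of 16 the values of WRKY47, 255575_at and AT4G00780 were 0.93, 1.33 and 0.55, all called.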

How the results depend on the processing

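Fitted to the compared arrays alone, 7 members were called at day 0, 6 at day 3 and 14 at day 7 in FRI flc-3 against flc-3, and the cause was not tested. Shares over all probe sets are not given for these refits by day. The other counts stayed within 1.5 times of the reported ones under all settings that kept every array. Leaving out each array in turn gave 44 to 51 calls for FRI flc-3 against flc-3, 18 to 24 for FRI against FRI flc-3 and 74 to 81 for FRI against flc-3. By day it gave 11 to 21, 6 to 10, 13 to 18 and 14 to 27 calls at days 0, 3, 5 and 7. Day 7 against day 0 gave 30 to 39 in FRI, 60 to 68 in FRI flc-3 and 68 to 78 in flc-3, and changes with the day 4 to 10 and 11 to 17. With a replicate block the line comparisons had 48, 21 and 79 calls. By mean correlation with the arrays of each of the 3 replicate numbers, 13 of 36 arrays were closest to their own number. Over all probe sets, FRI flc-3 against flc-3 had 290 higher and 342 lower calls, and 381 and 294 with a common 75th percentile. The members then had 18 higher and 33 lower. Of 90 named values 5 lost their call under a setting and 8 without an array, and none changed sign.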
